A study of Homo sapiens with 12 samples.

Results

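The 9 genes described here are the CDK inhibitor genes CDKN1A, CDKN1B, CDKN1C, CDKN2A, CDKN2B, CDKN2C and CDKN2D, together with MTAP and DMRTA1, which neighbour CDKN2A and CDKN2B on chromosome arm 9p21. They were taken by name from the 19626 protein-coding genes of GENCODE 44 on chromosomes 1 to 22 and X. The data came from CUT&RUN, a method that cuts out and sequences the DNA next to an antibody's target, applied to RT112, a line derived from a human transitional cell carcinoma of the bladder with wild-type ARID1A according to the study. The 12 samples, all RT112 cells grown in DMEM with serum and with no treatment named, comprised ARID1A with an Abcam antibody, ARID1A with a Cell Signaling Technology (CST) antibody, H3K4me3 and an IgG control, with 3 replicates each. Region lists of the first 3 groups were used, each merged by the authors over its replicates. No IgG list was analysed here.

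CDK inhibitors hold the cell cycle in check by binding cyclin-dependent kinases. The Cip/Kip proteins p21 (CDKN1A), p27 (CDKN1B) and p57 (CDKN1C) bind several cyclin-CDK complexes. The INK4 proteins p16 (CDKN2A), p15 (CDKN2B), p18 (CDKN2C) and p19 (CDKN2D) bind CDK4 and CDK6, whose activity leads to phosphorylation of the retinoblastoma protein RB1. CDKN2A also encodes p14ARF from a separate first exon, and MTAP encodes an enzyme that salvages methylthioadenosine. The protein ARID1A belongs to the SWI/SNF remodelling complex, which moves nucleosomes, and H3K4me3 is a histone mark of active promoters.

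On the chromosomes used, the lists held 37501 Abcam, 32932 CST and 9765 H3K4me3 regions, with median widths of 1486, 1442 and 3046 bp. The lists give positions without signal, so depth is unknown, there is no replicate error and nothing below carries a test. A region missing from a list may lie under the peak threshold. H3K4me3 regions lay at the promoters of 11 of 12 urothelial marker genes, such as KRT7, GATA3 and ELF3, of 1 of 8 fibroblast markers (LUM), and of none of 8 immune and none of 8 endothelial markers. Both ARID1A antibodies had regions at 11 of 12 urothelial, 2 of 8 fibroblast, 1 of 8 immune and none of 8 endothelial markers.

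The promoter sequences of 6 of the genes are shown because the first 3 lay under called regions and the other 3 lay in a stretch of 9p21 where no list had any region, although GC content was above 50% in all 6. Each runs from 250 bases before to 50 after a RefSeq start site (build GRCh38.p14), and capitals mark the GC box GGGCGG on either strand.
CDKN1A (chr6:36678464-36678763, plus strand): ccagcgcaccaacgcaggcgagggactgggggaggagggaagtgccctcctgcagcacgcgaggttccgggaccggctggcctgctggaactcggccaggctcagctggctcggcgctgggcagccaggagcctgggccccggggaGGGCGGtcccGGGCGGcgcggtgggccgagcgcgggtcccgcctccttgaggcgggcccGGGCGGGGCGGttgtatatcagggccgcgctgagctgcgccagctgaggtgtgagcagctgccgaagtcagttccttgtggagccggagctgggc
CDKN1B (chr12:12717118-12717417, plus strand): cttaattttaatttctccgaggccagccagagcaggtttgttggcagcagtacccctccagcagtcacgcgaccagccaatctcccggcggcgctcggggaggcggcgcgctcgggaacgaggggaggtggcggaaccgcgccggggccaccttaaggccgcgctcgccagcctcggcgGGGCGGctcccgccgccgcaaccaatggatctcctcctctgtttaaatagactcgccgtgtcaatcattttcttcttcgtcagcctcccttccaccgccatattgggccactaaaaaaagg
CDKN2D (chr19:10568930-10569229, minus strand): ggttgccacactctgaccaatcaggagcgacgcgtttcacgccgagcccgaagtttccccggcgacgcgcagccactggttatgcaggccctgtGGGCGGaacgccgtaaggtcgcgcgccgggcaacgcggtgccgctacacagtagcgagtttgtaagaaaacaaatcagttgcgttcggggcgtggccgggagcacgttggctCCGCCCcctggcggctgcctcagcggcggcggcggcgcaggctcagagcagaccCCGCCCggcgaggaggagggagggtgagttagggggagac
CDKN2A, p16 start (chr9:21974808-21975107, minus strand): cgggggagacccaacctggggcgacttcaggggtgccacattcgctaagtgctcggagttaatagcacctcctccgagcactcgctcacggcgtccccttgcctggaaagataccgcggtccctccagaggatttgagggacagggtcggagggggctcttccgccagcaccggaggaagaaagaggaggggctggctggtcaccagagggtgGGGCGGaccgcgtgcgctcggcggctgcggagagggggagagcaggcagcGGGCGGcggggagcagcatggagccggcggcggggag
CDKN2B (chr9:22009256-22009555, minus strand): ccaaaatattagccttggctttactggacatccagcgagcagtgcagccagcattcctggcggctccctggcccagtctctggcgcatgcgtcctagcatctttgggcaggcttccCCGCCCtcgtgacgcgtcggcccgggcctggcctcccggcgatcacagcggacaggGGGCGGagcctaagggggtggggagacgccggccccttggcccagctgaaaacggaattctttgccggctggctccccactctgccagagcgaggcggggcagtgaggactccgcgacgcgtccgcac
MTAP (chr9:21802386-21802685, plus strand): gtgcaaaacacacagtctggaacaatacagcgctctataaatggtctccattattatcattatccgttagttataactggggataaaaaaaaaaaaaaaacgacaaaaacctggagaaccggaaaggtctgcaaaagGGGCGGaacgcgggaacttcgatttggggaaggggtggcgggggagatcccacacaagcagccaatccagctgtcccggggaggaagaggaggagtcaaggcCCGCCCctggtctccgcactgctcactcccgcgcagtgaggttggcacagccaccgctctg
The GC box occurred 4 times in the CDKN1A window, once in that of CDKN1B and 3 times in that of CDKN2D. It occurred 2 times in each of the printed CDKN2A, CDKN2B and MTAP windows. The window of DMRTA1, which lay in the same stretch and is not printed, held 3 and had a GC content of 62.3%. The window of the upstream CDKN2A start (21995275 to 21995574), which is not printed, held no GC box. Of 21509 such promoter windows of protein-coding genes, 56.8% held at least 1 GC box. None of the 6 windows held the AP-1 word TGANTCA, which 6.17% of all windows held, or the E-box CACGTG, which 8.36% held. CDKN2C also lay under called regions but is not printed, and its windows differed. Those starting at 50960495 and 50969995 each held an E-box, with GC contents of 46.3% and 49.3%. The window starting at 50968456 held 6 GC boxes and no E-box. GC content was 74.3% at CDKN1A, 62.3% at CDKN1B and 68.0% at CDKN2D, and 69.0% at CDKN2A, 67.3% at CDKN2B and 53% at MTAP.

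A promoter was taken as 1 kb on either side of any annotated transcription start site (TSS) of a protein-coding transcript. By this measure CDKN1A, CDKN2C and CDKN2D carried regions of both ARID1A antibodies and of H3K4me3. CDKN1B carried CST and H3K4me3 without Abcam. CDKN1C, CDKN2A, CDKN2B, MTAP and DMRTA1 had no region of any list. Thus 3 of 9 genes had both antibodies, against 38.2% of all protein-coding genes, and 4 of 9 had H3K4me3, against 53.1%. All 3 lists met at 3 of 9 promoters, against 33.8% of all genes. For single antibodies the counts were 3 of 9 with Abcam, against 46.7% of all genes, and 4 of 9 with CST, against 41.9%. No list had a region at 5 of 9 promoters, against 39.7% of all genes, and 4 of these 5 were neighbours on 9p21. Nothing particular to the 9 genes is read from these shares.

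**Figure D1:**
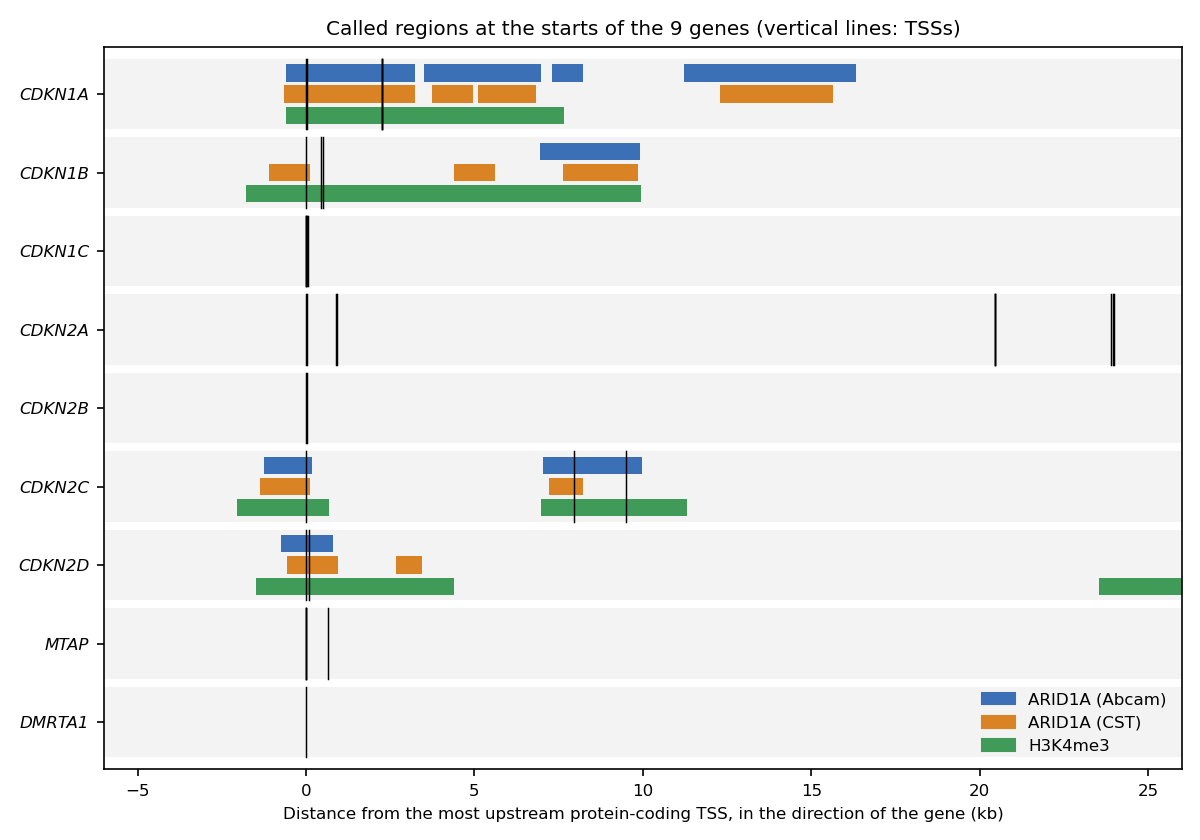
Positions of called regions, with Abcam blue, CST orange and H3K4me3 green, against the distance in kb from the most upstream protein-coding TSS of each gene, with TSSs as vertical lines. CDKN1A, CDKN2C and CDKN2D have all 3 lists at their promoters and CDKN1B has CST and H3K4me3, whereas CDKN1C, CDKN2A, CDKN2B, MTAP and DMRTA1 have none. The CDKN2C TSS farthest inside the gene lies 1290 bp from the nearest CST region. The TSS of MTAP farthest inside the gene lies beyond the right edge.

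CDKN1A encodes p21, an inhibitor that arrests the cell cycle after DNA damage. The gene (chromosome 6, 36676460 to 36687337, plus strand, hg38) lay in the densest surroundings of ARID1A regions among the 9. The Abcam promoter region ran from 36675866 to 36679708 (3843 bp) and the CST region from 36675805 to 36679683 (3879 bp), and the 2 shared 3818 bp. All 5 protein-coding TSSs, which fall into an upstream pair and a downstream trio, lay inside both. These were wide regions, since 97.0% of Abcam and 97.5% of CST regions were narrower. The H3K4me3 region ran from 36675866 to 36684128 (8263 bp), and only 62 of 9765 H3K4me3 regions were wider.

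ARID1A regions lay over most of this H3K4me3 region. The 3 Abcam regions that overlapped it covered 92.8% of its bases, more than in 96.2% of H3K4me3 regions. The 3 CST regions covered 82.0%, more than in 93.8% of them. The shares of 96.2% and 93.8% count all 9765 H3K4me3 regions, of which 7312 had any Abcam and 6548 any CST region. Beyond the TSSs, an Abcam region inside the gene (36679971 to 36683423) faced 2 CST regions (36680214 to 36681428 and 36681556 to 36683294). A narrow Abcam region of 928 bp with its midpoint in a coding exon (36683754 to 36684681) had no CST partner.

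Outside the H3K4me3 region, ARID1A regions continued on both sides of CDKN1A. Downstream of the gene lay the widest Abcam region of the window, from 36687665 to 36692794 (5130 bp), with a CST region from 36688744 to 36692089 inside it. It was intergenic, lay 5032 bp from the nearest TSS, that of RAB44, and was wider than 99.1% of Abcam regions. Upstream, Abcam regions began 43133, 32393, 20253, 13884 and 10273 bp before the most upstream TSS, and 4 of these 5 overlapped a CST region. The one without a CST partner ran from 36644067 to 36645455. None of the upstream regions overlapped H3K4me3. Over the gene and 50 kb on each side there were 10 Abcam, 9 CST and 1 H3K4me3 regions. Per 100 kb this was 9.02 for Abcam, more than around 99.0% of protein-coding genes, and 8.12 for CST, more than around 98.5%. For H3K4me3 it was 0.902 per 100 kb, more than around 54.2% of genes. Abcam regions covered 21.1% of this window, CST regions 17.3% and the H3K4me3 region 7.45%. The antibodies shared 69.0% of the bases that either of them covered.

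**Figure D2:**
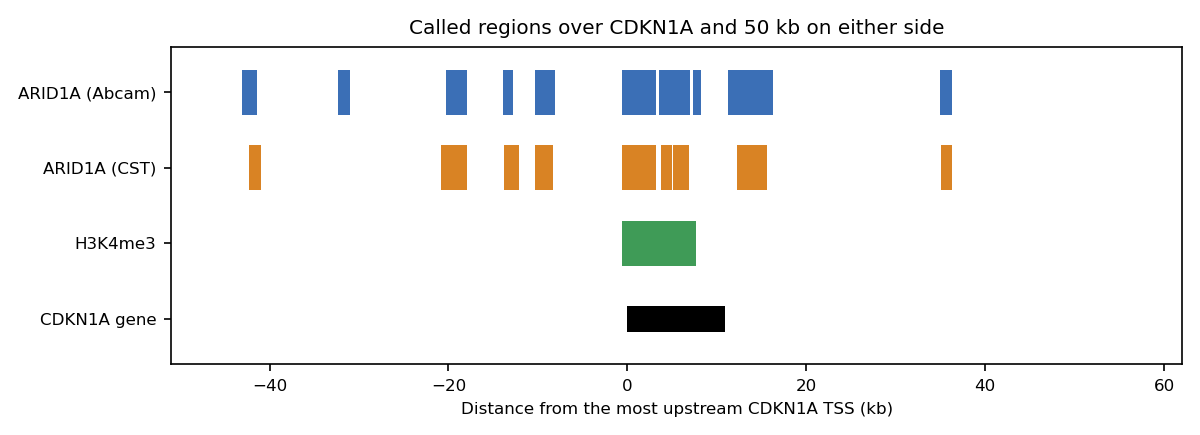
Called regions of each list around CDKN1A against the distance in kb from its most upstream TSS, and the gene in black. The 10 Abcam and 9 CST regions reach from far upstream into RAB44, whereas the single H3K4me3 region covers the gene start.

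By the widths of its widest promoter regions of the 3 lists, the genes most like CDKN1A were GSE1, the keratin gene KRT7 and DUSP6, which encodes a phosphatase of ERK. The likeness was the Euclidean distance over 3 values, the log2 of width + 1 in each list, and came to 0.08 for GSE1, 0.20 for KRT7 and 0.21 for DUSP6. At KRT7 the widths were 4063 bp with Abcam, 4204 bp with CST and 7509 bp with H3K4me3.

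CDKN1B encodes p27, which restrains CDK2 and whose abundance is largely set by SKP2-dependent degradation. At CDKN1B (chromosome 12, 12685498 to 12722369, plus strand) the antibodies differed. A CST region from 12716257 to 12717477 (1221 bp) lay over 1 of the 3 protein-coding TSSs, while the nearest Abcam region lay 6459 bp from a TSS. This CST region was narrow, wider than 34.4% of its list. H3K4me3 formed a region from 12715588 to 12727297 (11710 bp) that held all 3 CDKN1B TSSs and also a TSS of the downstream gene APOLD1, and only 10 H3K4me3 regions in the genome were wider. Abcam covered 25.2% of it and CST 39.6%. Both antibodies met at the APOLD1 end of this region (Abcam 12724320 to 12727273, CST 12725010 to 12727212). A further CST region without Abcam, its midpoint in a CDKN1B UTR, spanned 12721758 to 12722972.

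Both antibodies also had a region at a TSS of GPR19, a gene that overlaps the annotated span of CDKN1B (Abcam 12695785 to 12697518, CST 12695872 to 12697299). The Abcam region ended 19850 bp before the most upstream protein-coding TSS of CDKN1B. No H3K4me3 region overlapped either. Over the gene and 50 kb on each side there were 3 Abcam, 5 CST and 1 H3K4me3 regions. The Abcam density of 2.19 per 100 kb exceeded that around 56.7% of genes and the CST density of 3.65 that around 79.8%.

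CDKN1C encodes p57 and is an imprinted gene expressed mainly from the maternal copy. It (chromosome 11, 2883213 to 2885775, minus strand) had no region of any list at its 5 TSSs, which lie within a short interval. The nearest Abcam region lay 25972 bp away, the nearest CST region 26848 bp and the nearest H3K4me3 region 41265 bp. Its promoter had a GC content of 77.0% and an observed over expected CpG ratio of 1.09, the highest GC content of the 9. The nearest ARID1A regions (Abcam 2911747 to 2913905, CST 2912623 to 2913343) lay in an intron of the transporter gene SLC22A18. The H3K4me3 region lay at PHLDA2, another imprinted gene, from 2927040 to 2931136, together with both antibodies (Abcam 2928995 to 2931111, CST 2928858 to 2930907). Thus all 3 lists were present within 50 kb of CDKN1C, and the densities of 2.93 per 100 kb with Abcam and with CST exceeded those around 68.9% and 72.4% of genes.

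Of the INK4 genes, CDKN2C and CDKN2D carried all 3 lists. CDKN2C, which encodes p18 (chromosome 1, 50960745 to 50974634, plus strand), had regions at both of its TSS groups. The upstream TSS lay under Abcam (50959491 to 50960922), CST (50959391 to 50960869) and H3K4me3 (50958711 to 50961422). That H3K4me3 region also held a TSS of the divergent gene FAF1, so the regions cannot be assigned to either gene. At the internal TSSs an Abcam region from 50967774 to 50970732 (2959 bp) held both, while the CST region from 50967970 to 50968955 (986 bp) held 1 of them and ended 1290 bp short of the other. Abcam covered 68.1% of the internal H3K4me3 region (50967716 to 50972058) and CST 22.7%. At the upstream H3K4me3 region the antibodies covered 52.8% (Abcam) and 54.5% (CST). These 2 sites were the only regions of any list over the gene and 50 kb on each side, a density close to the median gene for Abcam (1.76 against 1.84 per 100 kb) and for CST (1.76 against 1.68).

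CDKN2D, which encodes p19 (chromosome 19, 10566460 to 10569059, minus strand), had both of its TSSs under Abcam (10568251 to 10569814) and CST (10568099 to 10569613), which shared 1363 bp. The H3K4me3 region ran from 10564673 to 10570532 (5860 bp), was wider than 96.4% of its list and also held a TSS of the downstream gene KRI1. A narrow CST region lay at the KRI1 end (10565622 to 10566400), without Abcam. Around CDKN2D there were 3 Abcam, 5 CST and 4 H3K4me3 regions. The H3K4me3 density of 3.90 per 100 kb was higher than around 94.7% of genes. The other H3K4me3 regions lay at ATG4D, AP1M2 and SLC44A2, and those at ATG4D and AP1M2 overlapped no ARID1A region.

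**Figure D3:**
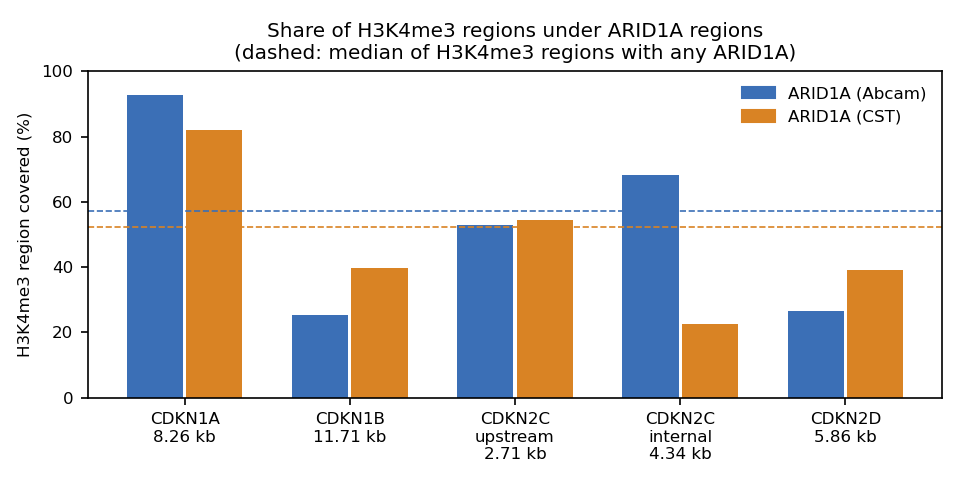
Percentage of the bases of each H3K4me3 promoter region that lay under Abcam (blue) and CST (orange) regions, with the width of the H3K4me3 region under each name and, as dashed lines, the medians over all H3K4me3 regions with any region of that antibody (57.3% for Abcam, 52.2% for CST). CDKN1A stands at 92.8% and 82.0%, while CDKN1B and CDKN2D lie between 25.2% and 39.6%.

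**Figure D4:**
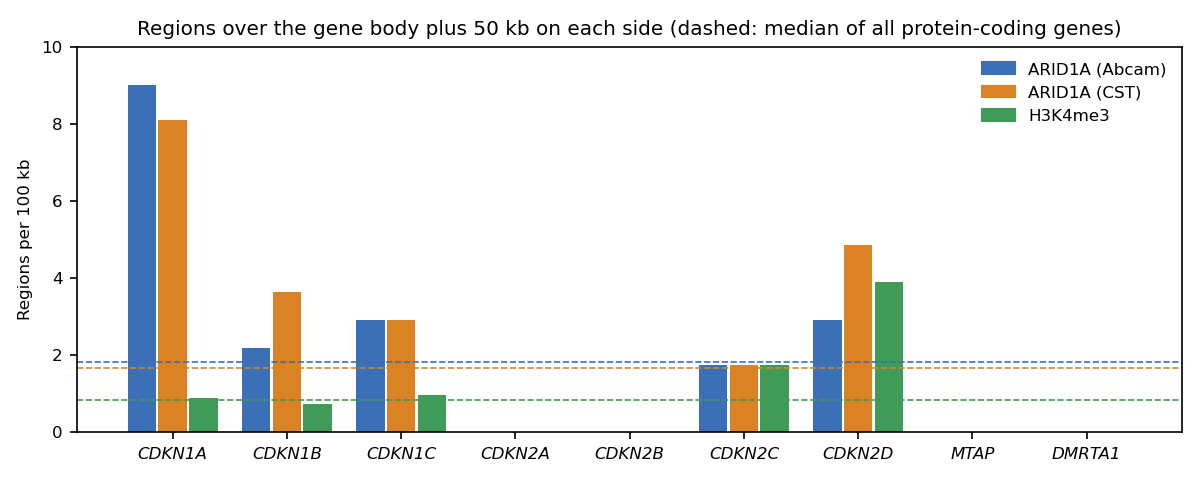
Regions per 100 kb over each gene body plus 50 kb on each side, for Abcam (blue), CST (orange) and H3K4me3 (green), with the medians of all 19626 genes as dashed lines (1.84, 1.68 and 0.836). CDKN1A reaches 9.02 with Abcam and 8.12 with CST, and CDKN2A, CDKN2B, MTAP and DMRTA1 are at 0 in every list.

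The remaining 4 genes lie together on 9p21, a locus often lost in bladder and other cancers. CDKN2A (chromosome 9, 21967752 to 21995301, minus strand), CDKN2B (22002903 to 22009305, minus strand), MTAP (21802636 to 21937651, plus strand) and DMRTA1 (22446824 to 22455740, plus strand), which encodes a factor of the DMRT family, had no region of any list over the gene and 50 kb on each side. This was so for 12.8% of all protein-coding genes (2516 genes). Of the 10 protein-coding TSSs of CDKN2A, those of p16 (21974857 to 21974866) and the most upstream ones (21995269 and 21995301) lay between 592338 and 612782 bp from the nearest region of any list. The nearest CDKN2A TSS lay 589363 bp from an Abcam, 588813 bp from a CST and 635462 bp from an H3K4me3 region. At CDKN2B the distances were 627303 bp to Abcam, 626753 bp to CST and 673402 bp to H3K4me3. At MTAP they were 420667, 420117 and 466766 bp in the same order. DMRTA1 was the most remote, with 1064855 bp to Abcam, 1045065 bp to CST and 1110954 bp to H3K4me3. Longer distances were found for 105 genes with Abcam, 122 with CST and 297 with H3K4me3.

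All 4 genes lay in 1 unbroken stretch without a region of any list, from 21382520 to 23491888 (2109369 bp, 2.11 Mb). It took up 80.9% of the window from 21 to 23 Mb and ran on for 491888 bp past its upper limit. No base of it is an assembly gap in hg38. A CST region from 21381427 to 21382519, in an intron of the lncRNA gene MIR31HG and overlapping an Abcam region from 21381037 to 21381969, bounded it on one side. An intergenic CST region from 23491889 to 23493176 bounded it on the other. The stretch held 8 protein-coding genes, the interferon genes IFNA1, IFNA2, IFNA8 and IFNE besides the 4 named above, and the starts of 12 lncRNA genes, CDKN2B-AS1 among them. For H3K4me3 alone the stretch without regions was longer, from 21335871 to 23824551 (2.49 Mb), and for Abcam alone it ran from 21381970 to 23581694 (2.20 Mb).

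Within the 21 to 23 Mb window, KLHL9, which encodes a ubiquitin ligase adaptor, was the only 1 of 22 protein-coding genes with a region at its promoter. It had all 3 lists, from 21334431 to 21335578 with Abcam, 21334656 to 21335699 with CST and 21334025 to 21335870 with H3K4me3. The 16 interferon genes of the window had none, and neither did HACD4. The window held 4 Abcam, 3 CST and 1 H3K4me3 regions. The 2 Mb before it held 29 Abcam, 22 CST and 8 H3K4me3 regions, and the 2 Mb after the stretch 11, 13 and 1. Those after the stretch all lay between 23491889 and 23827129. Per 100 kb, the window had 0.200 Abcam regions and the 23 chromosomes together 1.24.

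**Figure D5:**
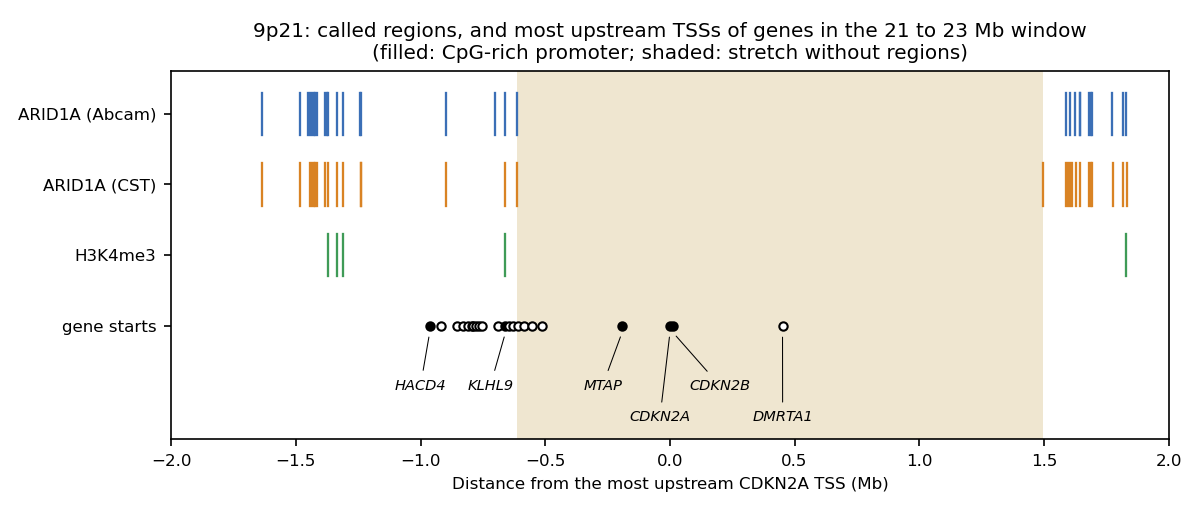
Called regions of each list at 9p21 against the distance in Mb from the most upstream CDKN2A TSS, with the most upstream TSS of each of the 22 genes of the 21 to 23 Mb window (filled where the promoter is CpG-rich) and the stretch without regions shaded. Regions of all lists stand on both sides, and MTAP, CDKN2A, CDKN2B and DMRTA1 lie inside the 2.11 Mb without any.

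A class of promoter that usually carries H3K4me3 served as a further comparison. A promoter was called CpG-rich where the 300 bases around its most upstream TSS had a GC content of at least 50% and an observed over expected CpG ratio of at least 0.6. MTAP (ratio 0.715), CDKN2A (1.07) and CDKN2B (0.736) were in this class, and DMRTA1 (0.549) fell short of it. In all, 6 of 9 genes were CpG-rich, against 57.4% of all genes. Of the 11264 CpG-rich promoters, 59.7% had Abcam, 53.6% had CST, 49.1% had both antibodies, 72.1% had H3K4me3, 45.8% had all 3 lists and 22.2% had none. Among the 6 genes, CDKN2D had all 3 lists, CDKN1B had CST and H3K4me3, and CDKN1C, CDKN2A, CDKN2B and MTAP had none. Over the gene body plus 50 kb on each side, 6.30% of the CpG-rich genes had no region. CDKN1A (ratio 0.0795) and CDKN2C (0.535) were not in the class at their most upstream TSS. Farther in, the ratio was 0.722 at the CDKN1A start printed above and 1.01 at an internal CDKN2C start. At the p16 start of CDKN2A printed above it was 0.764.

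Among stretches without regions, the one at 9p21 was long but not singular. Of 42272 stretches without an assembly gap (median 18252 bp) it ranked 77 by length, and it was the 2nd longest on chromosome 9. There were 88 such stretches of at least 2 Mb, of which 51 held at least 1 CpG-rich protein-coding gene. With 3 CpG-rich genes inside, it was among 78 stretches with at least that many. Ordered by the number of CpG-rich genes and then by length, it ranked 23. The longest of all lay on chromosome X and measured 7963010 bp. The lists hold no coverage, so the amount of DNA read from the 9p21 stretch was not measured here.

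The partners and regulators of the CDK inhibitors were counted by role. Of the 38 genes on 5 lists, 22 had both ARID1A antibodies, against 38.2% of all genes, and 34 had H3K4me3, against 53.1%. CpG-rich promoters made up 31 of the 38, against 57.4% of all genes, and among CpG-rich promoters in general the shares were 49.1% with both antibodies and 72.1% with H3K4me3. Nothing particular to the lists is read from these counts or from those by role below. All 3 lists met at 33.8% of all promoters, and the share of all genes with H3K4me3 alone was not counted. Of the CDK genes, CDK1, CDK2 and CDK4 had all 3 lists, and CDK6, a target of INK4 proteins, had H3K4me3 (5938 bp) with a narrow CST region of 866 bp and no Abcam region. Of 9 cyclin genes 4 had all 3 lists, 3 had H3K4me3 alone, and CCNA1 and CCND2 had no region. Each member of the retinoblastoma family differed. RBL2 had all 3 lists, RBL1 had Abcam (1972 bp) and H3K4me3 without CST, and RB1, the tumour suppressor downstream of CDK4 and CDK6, had H3K4me3 (3580 bp) without ARID1A. Of 10 E2F and DP factor genes 5 had all 3 lists and 3 had H3K4me3 alone, while E2F2 (1214 bp) and TFDP2 (1249 bp) had an Abcam region without CST or H3K4me3. Of 12 regulators, such as MDM2 and SKP2, 9 had all 3 lists and 2 had H3K4me3 alone. ZBTB17, which encodes MIZ1, a transcription factor that acts on CDKN1A and CDKN2B, had Abcam (1080 bp) and H3K4me3 without CST.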

How the data were processed

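CUT&RUN was carried out by the authors in RT112 cells that had been frozen in aliquots and thawed. All samples went through CUT&RUN in a single batch, and their libraries were split at random over preparation batches. By the labels and methods, adapters were trimmed with cutadapt, reads were aligned to the human genome (hg38) and that of E. coli with bwa-mem2, and Picard and samtools removed duplicates and reads that did not map uniquely. Replicates were scaled by spike-in, only the top-ranked SEACR peaks were kept, and these were merged over the 3 replicates of each antibody with bedtools. A merged region need not have been called in every replicate. Versions are not given in the sources used here. The peak threshold is uncertain, since relaxed SEACR calling is described in the methods and stringent calling in the names of the deposited lists. The study describes its results in general as coming from biologic replicates, and the labels do not say whether the CUT&RUN replicates were separate cultures. Several IFNA genes are close copies of each other, so the filter on unique mapping can remove some of their reads.

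The deposited lists hold chromosome, start and end only. Positions are printed counting from 1, and no region ran past a chromosome end in hg38. Regions on sequences other than chromosomes 1 to 22 and X (152 Abcam, 159 CST, 14 H3K4me3) were left out. Overlap meant at least 1 shared bp. Genes and TSSs came from GENCODE 44, and printed promoters from RefSeq, in which 8 of the 9 genes matched. Widths and densities were placed among all regions or all genes. No test was run, because each list is 1 merged set. Interval functions were tested on simulated data. Python 3.11.15, numpy 2.4.6 and matplotlib 3.10.9 were used.

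The genes and lists were chosen with earlier results of these data known. The text names all 9 genes, the pathway genes in the least common class of their list, the genes of 9p21 from 21 to 23 Mb, and the 3 genes most like CDKN1A, beside neighbours that share a region. The classes in the pathway lists were all 3 lists, H3K4me3 alone, no region and other. The other pathway genes named as examples were chosen after values were seen. The values of 1 gene of the pathway lists are counted but not reported here.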

Additional observations from a re-analysis of the deposited data

How the results depend on the processing

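The same 3 genes (CDKN1A, CDKN2C and CDKN2D) had both ARID1A antibodies, and the same 4 (with CDKN1B) had H3K4me3, under 5 other promoter settings, which were a window of 500 bp or of 3 kb, 1 TSS per gene (the most upstream), only regions no narrower than the list median, and joining of regions under 500 bp apart. Both antibodies also remained at these 3 genes when their regions had to overlap each other, by 1 bp or by at least 50% of each. With only the wider regions, however, CDKN2C kept Abcam (2959 bp) at its internal TSSs and CST (1479 bp) at its upstream TSS. It counted as having both antibodies there only because all TSSs of a gene were pooled, so that setting shows no shared site at CDKN2C. The pathway count of 22 genes varied between 16 and 23. The shares of all genes moved as well. With only the wider regions, 21.4% of all genes had both antibodies and 29.0% had H3K4me3, against 38.2% and 53.1% in the main setting. The unchanged counts of 3 and 4 of 9 thus lay below these shares in the main setting and above them among the wider regions. The pathway count of 16 also belongs to the wider regions. In the remaining settings the shares were 33.9% to 41.6% and 49.5% to 53.9%. The merged windows of the 9 genes held 21 Abcam, 24 CST and 9 H3K4me3 regions. With 20 kb on each side they held 12 Abcam, 15 CST and 6 H3K4me3 regions, and with 100 kb 47, 44 and 15 in the same order. With only the wider regions they held 12, 12 and 6, and with regions under 500 bp apart joined 19, 23 and 9. Each setting admits fewer or more regions by construction. The 9p21 stretch measured 2.49 Mb with H3K4me3 alone, 2.50 Mb among the wider regions and 2.20 Mb with H3K4me3 and the Abcam regions that overlapped CST. No alternative to the CpG-rich thresholds was tried. No replicate could be left out, and no paired analysis was possible because each list merges its replicates. Depth is unknown, so a missing region is not evidence of absence.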

Other observations

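The starts of several long noncoding RNA genes lay near the CDK inhibitors. DINOL, a lncRNA gene inside CDKN1A on the opposite strand, starts at 36678559, inside regions of all 3 lists. PANDAR, also on that strand, starts at 36675126, 740 bp from the Abcam and H3K4me3 regions and 679 bp from the CST region of CDKN1A. Near CDKN1C, SLC22A18AS starts 7934 bp from the nearest Abcam and 8810 bp from the nearest CST region. On 9p21, the start of CDKN2B-AS1 at 21994139 lay 612170 bp from the nearest Abcam, 611620 bp from the nearest CST and 658269 bp from the nearest H3K4me3 region.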
